A study of Arabidopsis thaliana with 9 samples.

Results

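The nuclear genes *PRK*, *RCA*, *NPQ4*, *PORB* and *GUN4*, 5 genes of photosynthesis, were followed in mature leaves of transgenic *Arabidopsis* that overexpress a cassava glutaredoxin. They serve carbon fixation, photoprotection and chlorophyll synthesis, and were chosen with earlier results of these data known. Each had 1 probe set (a group of short oligonucleotides that reports a transcript), so that 5 of the 22810 probe sets on the ATH1 array are described. *PRK*, *RCA* and *PORB* carried their names in the platform annotation. *GUN4* and *NPQ4*, the last under its synonym PSBS, took theirs from pairs of probe sets and names in the supplementary gene lists of the study. Those lists hold genes picked as changed on these same arrays, so the direction of *GUN4* and *NPQ4* in MeGRX232-OE leaves is not independent evidence. The lists for chlorophyll biosynthesis and the reductive pentose-phosphate cycle hold 2 and 1 of the 5 genes. Since all 5 were chosen with earlier results known, the calls of *PRK*, *RCA* and *PORB* are not independent evidence either.

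The 9 arrays hold 3 groups of 3: MeGRX232-OE (lines 3, 9 and 12), MeGRX360-OE (lines 5, 11 and 20) and plants with the empty pG1300 vector (numbered 1 to 3). All plants were 45 days old and grew without stress at 22 °C with 12 h of light and 12 h of darkness. The methods equate MeGRX232-OE with overexpression of *MeGRXC15* as a GFP fusion from the constitutive CaMV 35S promoter in Col-0, introduced by floral dip, with a homozygous line behind each array. MeGRX360-OE, by its label another overexpressed cassava gene, is not described in the paper. The paper speaks of control lines, without saying which line each vector array came from. A p-value here measures only the spread between these arrays, and 3 arrays a group limit the precision of every value.

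In the chloroplast stroma, the Calvin cycle fixes carbon dioxide with Rubisco, which needs an activase to remain active, and regenerates its acceptor with phosphoribulokinase. Chlorophyll is made in the plastid from glutamate through protoporphyrin, with a light-dependent reduction of protochlorophyllide near the end of the route. When light exceeds what the leaf can use, the PsbS protein of photosystem II triggers the release of the excess as heat. The proteins of the genes followed here are encoded in the nucleus and imported into the plastid.

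The leaf label was checked first. *LHCB4.1*, which encodes an antenna protein of photosystem II, had intensities of 4284 to 5940 in MeGRX232-OE leaves, of 5929 to 7312 in MeGRX360-OE leaves and of 3815 to 5670 in vector leaves. Of 10 markers of flowers, seeds, phloem, guard cells and trichomes, only the guard cell gene *FMA* had a name here, with low intensities of 15.3 to 23.9 on MeGRX232-OE, 19.4 to 20.8 on MeGRX360-OE and 19.2 to 23.0 on vector arrays. Array medians lay between 28.1 and 30.2. The 25S rRNA probe set read 430 to 616 on the MeGRX232-OE arrays, 853 to 1073 on the MeGRX360-OE arrays and 279 to 350 on the vector arrays, so that it separated the groups. The 3′ to 5′ signal ratio of GAPDH, a measure of RNA integrity, was 16.1 on the array of MeGRX360-OE line 5, 9.37 to 11.1 on the other MeGRX arrays and 8.96 to 10.5 on the vector arrays. The same ratio of ubiquitin was 3.12 on the array of line 5, the highest of the 9, and 2.15 to 2.89 on the vector arrays. The ratio of actin did not set line 5 apart, with 14.8 on its array, 12.0 and 13.8 on the other MeGRX360-OE arrays, 13.6 to 20.1 in MeGRX232-OE and 17.9 to 19.2 in vector leaves. What part rRNA and RNA integrity have in the values below was not tested.

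In MeGRX232-OE leaves all 5 genes differed from the vector (limma with p adjusted by Benjamini-Hochberg over 22746 probe sets, threshold 0.05). *PRK*, *RCA*, *NPQ4* and *GUN4* fell and *PORB* rose. In RNA from whole leaves, fewer cells of a type and less RNA per cell cannot be told apart. The background was wide: 22.0% of all probe sets passed this test, 9.22% higher and 12.8% lower. In MeGRX360-OE leaves 2 of the 5 passed, *PRK* lower and *PORB* higher, against 16.5% of all probe sets, 6.74% higher and 9.72% lower. Because the 5 genes were chosen with earlier results of these data known, their counts and these shares are not a like comparison. Both comparisons use the same 3 vector arrays and are therefore not independent of each other.

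**Figure D1:**
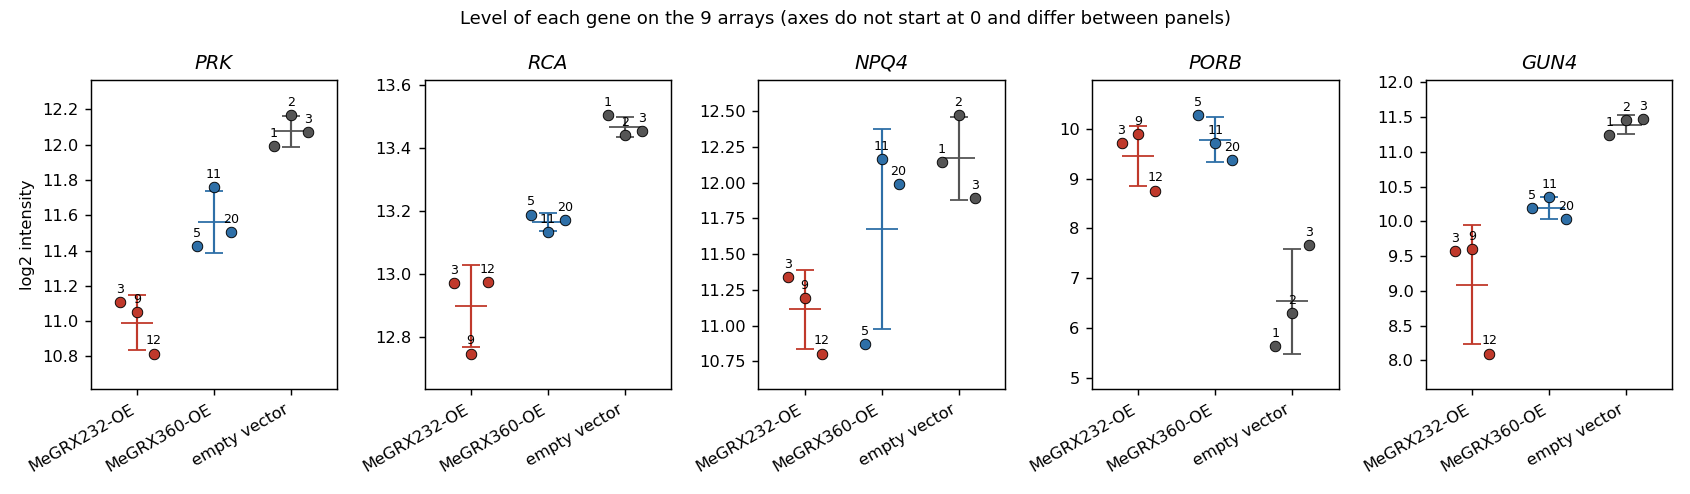
Level of each of the 5 genes (log2 intensity, 1 panel per gene with its own axis that does not start at 0) on the 3 arrays of MeGRX232-OE, MeGRX360-OE and empty vector, with points numbered by line or array and bars for the mean and SD (n = 3). *PRK*, *RCA* and *GUN4* stand in 3 separate tiers with vector highest, the *NPQ4* array of MeGRX360-OE line 5 lies among the MeGRX232-OE arrays, and *PORB* is lowest on the vector arrays.

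*PRK* (AT1G32060) encodes phosphoribulokinase, which remakes the acceptor of carbon dioxide in the Calvin cycle. Its intensities were 2204, 2124 and 1803 in MeGRX232-OE lines 3, 9 and 12, 2750, 3473 and 2907 in MeGRX360-OE lines 5, 11 and 20, and 4070, 4596 and 4311 on vector arrays 1 to 3. No array of one group reached into the range of another, with MeGRX232-OE lowest and vector highest. On the log2 scale the means were 10.99 ± 0.15 in MeGRX232-OE, 11.56 ± 0.18 in MeGRX360-OE and 12.08 ± 0.09 in vector leaves (SD, n = 3 each). The fall in MeGRX232-OE was 2.12-fold (log2 difference -1.09, SE 0.13, adjusted p = 0.000538), and 10.8% of all probe sets had a larger difference. In MeGRX360-OE the level fell 1.43-fold (log2 difference -0.51, SE 0.13, adjusted p = 0.0255). That call did not survive the loss of MeGRX360-OE line 5 or line 20 or of any 1 vector array, for which the adjusted p ranged up to 0.0954, with log2 differences of -0.44, -0.48, -0.56, -0.47 and -0.51.

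*RCA* (AT2G39730) encodes Rubisco activase, which frees the active site of Rubisco from bound sugar phosphates. It was bright, with intensities of 8027, 6875 and 8038 in MeGRX232-OE, 9340, 8988 and 9221 in MeGRX360-OE and 11620, 11130 and 11240 in vector leaves. The 3 groups again did not overlap, in the same order as for *PRK*. The SD on the log2 scale was 0.13 in MeGRX232-OE, larger than that of 32.7% of probe sets, and 0.03 in MeGRX360-OE and in vector leaves, where the replicates were tight. Only 2.9% of probe sets had a smaller SD in MeGRX360-OE and 4.9% in vector leaves. Of the 5 genes *RCA* had the smallest difference from the vector in MeGRX232-OE leaves, a 1.49-fold fall (log2 difference -0.57, SE 0.10, adjusted p = 0.00328). In MeGRX360-OE leaves the log2 difference was -0.30 (SE 0.10, 95% interval -0.52 to -0.08), which missed the threshold (adjusted p = 0.0676) although the groups did not overlap. Without MeGRX232-OE line 9, an array that enters this comparison only through the shared spread, its adjusted p was 0.0444.

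*NPQ4* (AT1G44575) encodes PsbS, the sensor of lumen pH that switches on heat dissipation in photosystem II. Its intensities were 2590, 2346 and 1788 in MeGRX232-OE, 1873, 4595 and 4080 in MeGRX360-OE and 4536, 5680 and 3805 in vector leaves. The MeGRX232-OE arrays all lay below the vector arrays, whereas MeGRX360-OE was split, with line 5 among the MeGRX232-OE values and lines 11 and 20 among the vector values. The 2.08-fold fall in MeGRX232-OE leaves (log2 difference -1.06, SE 0.33, 95% interval -1.80 to -0.32) passed only narrowly, with an adjusted p = 0.0481. It no longer passed when any single MeGRX232-OE array, any single vector array or MeGRX360-OE line 20 was left out, with log2 differences of -1.196 to -0.903 and adjusted p-values up to 0.161 over the arrays left out in turn.

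In MeGRX360-OE leaves the log2 difference of *NPQ4* from the vector was -0.49 (95% interval -1.23 to 0.25, adjusted p = 0.379). It rested on line 5, and without that line it was -0.09 (adjusted p = 0.843). The SD of *NPQ4* over the 3 lines, 0.70 on the log2 scale, exceeded that of 97.0% of probe sets in this group. Line 5 is also the array with the GAPDH ratio of 16.1 and a ubiquitin ratio of 3.12, both the highest of the 9 arrays. Its actin ratio of 14.8 did not stand apart. Array quality weights in limma gave it 0.447, the lowest of the 9. The part of RNA integrity was not tested.

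*GUN4* (AT3G59400) encodes a porphyrin-binding protein that stimulates magnesium chelatase, the enzyme that commits protoporphyrin to chlorophyll. Its intensities were 762, 775 and 274 in MeGRX232-OE, 1168, 1312 and 1047 in MeGRX360-OE and 2415, 2818 and 2850 in vector leaves. As for *PRK* and *RCA*, the groups formed 3 tiers without overlap. Within MeGRX232-OE, line 12 stood well below lines 3 and 9, and the highest of these arrays was 2.83 times as bright as the lowest, against 1.25 times in MeGRX360-OE and 1.18 times in vector leaves.

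The fall of *GUN4* in MeGRX232-OE leaves was 4.93-fold, the largest among the 4 genes that fell (log2 difference -2.30, SE 0.35, adjusted p = 0.00202). Only 2.26% of probe sets had a larger difference, and without line 12 it was -1.81 and still passed. In MeGRX360-OE leaves the log2 difference was -1.198 (SE 0.35, 95% interval -2.002 to -0.394) with an adjusted p = 0.0506, which narrowly missed the threshold. The outcome depended on which arrays were kept. MeGRX232-OE arrays enter this comparison only through the shared spread. Without line 12 the adjusted p was 0.000839, without line 9 0.0423 and without line 3 0.0538, with the difference itself unchanged. Without any 1 MeGRX360-OE or vector array *GUN4* did not pass, with adjusted p-values of 0.0916 to 0.144.

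*PORB* (AT4G27440) encodes a light-dependent protochlorophyllide oxidoreductase, which in green leaves carries out the light-driven step of chlorophyll synthesis. Its intensities were 836, 952 and 434 in MeGRX232-OE, 1233, 837 and 660 in MeGRX360-OE and 49.6, 78.6 and 205 in vector leaves. All 6 arrays of both MeGRX groups lay above all 3 vector arrays, and the MeGRX groups overlapped each other. The vector arrays differed among themselves by 4.13-fold, with array 3 the brightest, and their SD of 1.04 on the log2 scale was larger than that of 99.0% of probe sets.

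The rise of *PORB* was 7.56-fold in MeGRX232-OE leaves (log2 difference 2.92, SE 0.51, adjusted p = 0.00377) and 9.48-fold in MeGRX360-OE leaves (log2 difference 3.24, SE 0.51, adjusted p = 0.00374). The 95% interval was wide, 1.76 to 4.08 in MeGRX232-OE and 2.09 to 4.40 in MeGRX360-OE. A larger difference was found for 1.25% of all probe sets in MeGRX232-OE and for 0.48% in MeGRX360-OE. *PORB* was the only one of the 5 genes called higher, and it moved in the opposite direction to *GUN4*, which acts earlier on the same route.

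**Figure D2:**
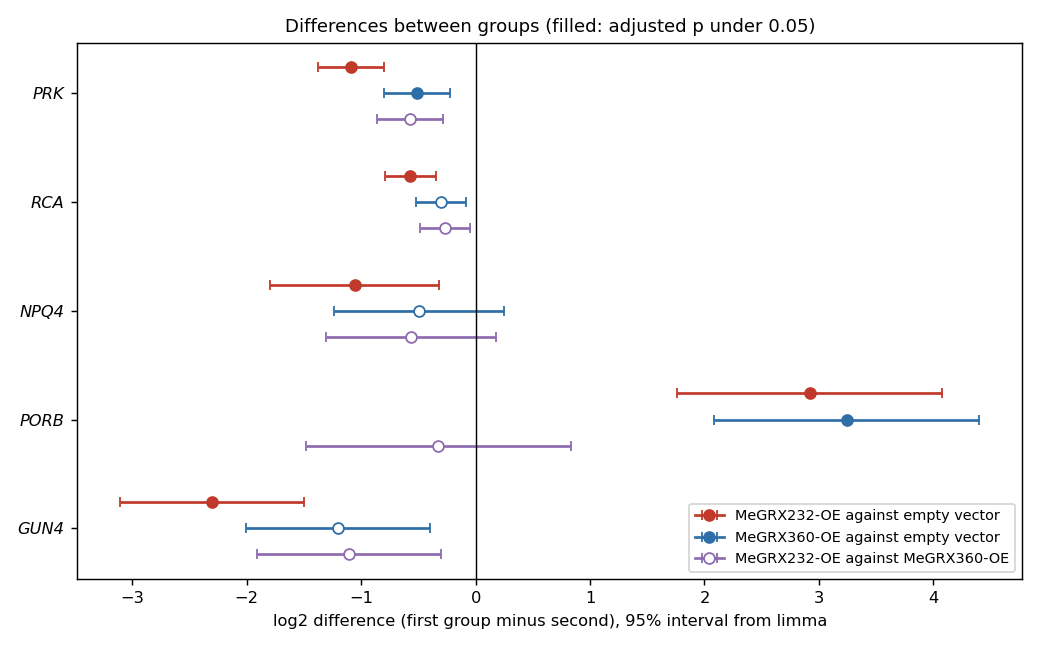
Differences of the 5 genes between groups (log2, first group minus second, 95% interval from limma), filled where the adjusted p was under 0.05. Against the vector, *PRK*, *RCA*, *NPQ4* and *GUN4* lie left of 0 and *PORB* lies right of 0 for both MeGRX groups, and every point of MeGRX232-OE against MeGRX360-OE is open.

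None of the 5 genes passed the test of MeGRX232-OE directly against MeGRX360-OE, in which 0.145% of all probe sets (33) were called by limma, and 3 of the 5 had an unadjusted p under 0.05, as had 3076 of the 22746 probe sets. These 3 were *PRK* (log2 difference -0.57, 95% interval -0.86 to -0.29, adjusted p = 0.117), *RCA* (-0.27, -0.49 to -0.05, adjusted p = 0.280) and *GUN4* (-1.10, -1.91 to -0.30, adjusted p = 0.232). In each of them the 3 MeGRX232-OE arrays lay below the 3 MeGRX360-OE arrays, and 16.3% of all probe sets had arrays that did not overlap in this comparison, in either direction. For *NPQ4* the log2 difference was -0.56 (-1.30 to 0.18) and for *PORB* -0.33 (-1.48 to 0.83), with overlapping arrays. A deeper fall in MeGRX232-OE than in MeGRX360-OE was therefore measured for *PRK*, *RCA* and *GUN4* but not called. Against the vector, all 5 genes had arrays that did not overlap in MeGRX232-OE, where 37.1% of all probe sets did not, and 4 of 5 in MeGRX360-OE, where 35.4% did not.

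The lines of one group did not shift together over all 5 genes. MeGRX232-OE line 12 was the lowest of its group for *PRK*, *NPQ4*, *PORB* and *GUN4*, with deviations of -0.17, -0.31, -0.69 and -0.99 from the group mean on the log2 scale, but not for *RCA*, for which line 9 was lowest. Line 12 thus combined the largest fall of *GUN4*, 9.79-fold below the vector mean, with the smallest rise of *PORB*, 4.68-fold above it. In MeGRX360-OE, line 5 had the lowest *NPQ4* (2.46-fold below the vector mean) and *PRK* (1.57-fold below) and the highest *PORB* (13.3-fold above). *GUN4* varied little there, from 2.05-fold to 2.56-fold below the vector mean.

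**Figure D3:**
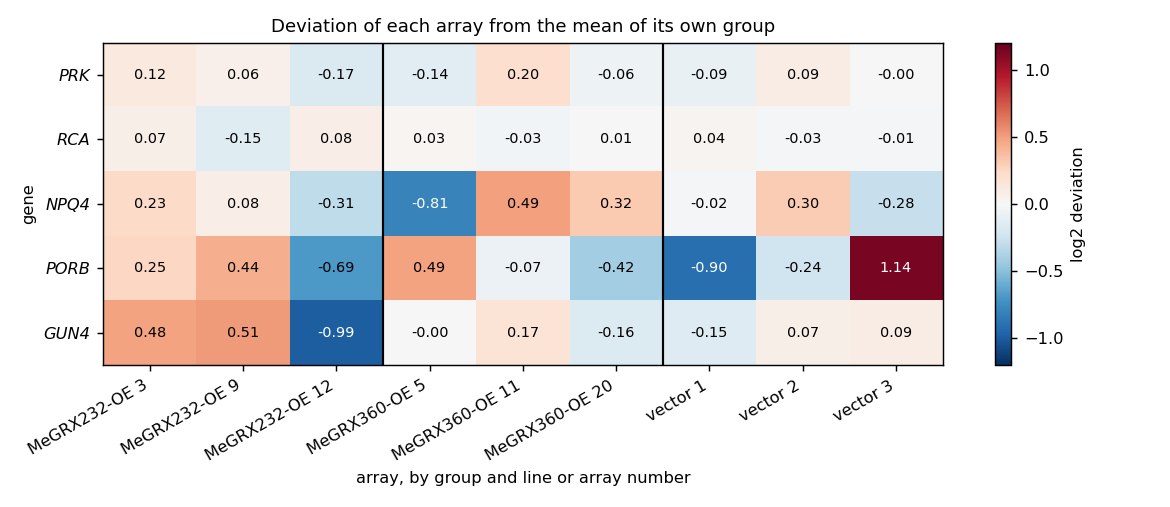
Deviation of each array from the mean of its own group (log2, colour scale) for the 5 genes in rows and the 9 arrays in columns, with black lines between MeGRX232-OE, MeGRX360-OE and vector. The strongest deviations are *PORB* on vector array 3 (1.14) and vector array 1 (-0.90), *GUN4* in MeGRX232-OE line 12 (-0.99) and *NPQ4* in MeGRX360-OE line 5 (-0.81).

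Over the 9 arrays, *PRK* correlated with *GUN4* at r = 0.96, with *RCA* at 0.90 and with *NPQ4* at 0.85, and *PORB* ran against the other 4 (r = -0.61 to -0.78). These figures are descriptions over arrays that share their groups. After each group's mean was removed, r was 0.73 for *PRK* and *GUN4* and 0.75 for *PRK* and *NPQ4*, but -0.43 for *PRK* and *RCA* and -0.54 for *RCA* and *GUN4*. The sign also turned for *PORB* and *GUN4*, with r = -0.61 over all arrays and 0.57 within groups. It did so too for *PRK* and *PORB* (-0.69 and 0.27) and for *RCA* and *NPQ4* (0.67 and -0.26). Within groups *PORB* remained negative with *RCA* (-0.36) and *NPQ4* (-0.30).

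For each gene, the 3 probe sets with a single gene name and the most similar pattern were taken out of 13524 by Pearson's r over the 9 arrays. They were picked on values that hold the group differences. Their directions, and largely their calls, follow from that choice and are not separate evidence. For *PRK* they were *AT1G15260* (r = 0.994), *AT5G42680* (0.991) and *AT1G44000* (0.990), and the last of these fell by 2.95 on the log2 scale in MeGRX232-OE and by 1.24 in MeGRX360-OE leaves. For *RCA* they were *AT2G24280* (0.995), *AT1G66330* (0.992) and *AT3G01060* (0.988), with falls of 1.34 to 2.05 in MeGRX232-OE and 0.71 to 1.17 in MeGRX360-OE, more than *RCA* itself on the same scale. For *PORB* they were *AT5G61590* (0.987), the beta-tubulin gene *TUB5* (0.985) and *AT5G04480* (0.981), and *TUB5* rose by 1.86 in MeGRX232-OE and 2.17 in MeGRX360-OE leaves (adjusted p = 0.00219 and 0.00191). The patterns nearest to *NPQ4*, *AT5G44520*, *AT1G75280* and *AT5G43745* (r = 0.972 to 0.975), had log2 differences of -0.95 to -0.51 in MeGRX232-OE, of which only that of *AT5G44520* passed. Those nearest to *GUN4* were *AQI* (AT4G38220), *AT3G27050* and *AT3G56270* (r = 0.972 to 0.980), all called lower in MeGRX232-OE and none in MeGRX360-OE.

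The pathways of the 5 genes were also read from lists drawn up from known functions. These lists hold the 5 genes themselves, so their counts are not separate from the results above. *PRK* and *RCA* are in the Calvin cycle list, *PORB* and *GUN4* in chlorophyll synthesis and *NPQ4* in photoprotection. Of 24 Calvin cycle genes, 5 had a named probe set, and in MeGRX232-OE leaves 4 fell, none rose and 1 did not pass, with a median log2 difference of -1.09 against 0.003 over all probe sets. In MeGRX360-OE leaves 3 fell and 2 did not pass (median -0.51 against 0.014). Both medians are the values of *PRK* itself. Over all probe sets, 12.8% were called lower in MeGRX232-OE and 9.72% in MeGRX360-OE. Among the 4 named by the platform annotation, *PRK* and *RCA* included, 3 fell in MeGRX232-OE (median -0.83) and 2 in MeGRX360-OE leaves (median -0.41). *FBA1*, a plastid aldolase named through the supplementary gene lists, had intensities of 1299 to 1509 in MeGRX232-OE leaves, 2344 to 3098 in MeGRX360-OE leaves and 6011 to 6226 in vector leaves, and fell by 2.15 in MeGRX232-OE (adjusted p = 2.56e-05) and by 1.17 in MeGRX360-OE leaves (adjusted p = 0.000681). It was the only one of these pathway genes called lower in MeGRX232-OE than in MeGRX360-OE. *SBPASE*, sedoheptulose-bisphosphatase, fell by 1.28 in MeGRX232-OE and by 0.73 in MeGRX360-OE leaves (adjusted p = 0.00146 and 0.0281). *AT1G56190* was not called, with log2 differences of -0.26 in MeGRX232-OE and 0.56 in MeGRX360-OE.

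The chlorophyll synthesis list was mixed. Of 26 genes 12 had a name, and in MeGRX232-OE leaves 2 rose, 3 fell and 7 did not pass (median -0.27). In MeGRX360-OE leaves 3 rose, 1 fell and 8 did not pass (median 0.41). Over all probe sets, 9.22% were called higher and 12.8% lower in MeGRX232-OE, and 6.74% and 9.72% in MeGRX360-OE. *HEMA2*, a glutamyl-tRNA reductase at the entry of the route, rose by 1.96 in MeGRX232-OE and by 1.45 in MeGRX360-OE leaves (adjusted p = 0.00103 and 0.00679), with intensities of 89.6 to 208 in MeGRX232-OE and 86.5 to 103 in MeGRX360-OE against 31.7 to 38.8 in vector leaves. *G4*, chlorophyll synthase near the end of it, fell by 1.10 in MeGRX232-OE and by 0.58 in MeGRX360-OE leaves (adjusted p = 0.000752 and 0.0217). *CRD1*, a subunit of the cyclase that forms the fifth ring, fell by 1.01 in MeGRX232-OE leaves (adjusted p = 0.00809) and had a log2 difference of -0.33 in MeGRX360-OE (adjusted p = 0.349). *HEME2*, a uroporphyrinogen decarboxylase, had a log2 difference of -0.03 in MeGRX232-OE (adjusted p = 0.926) and rose by 0.62 in MeGRX360-OE leaves (adjusted p = 0.0342). *GUN4*, *CRD1* and *G4*, the 3 that fell in MeGRX232-OE, were all named through the supplementary gene lists. Among the 9 genes named by the platform annotation, 2 rose and none fell (median -0.03).

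Lists next to these held fewer named genes, and their counts stand beside 12.8% of all probe sets called lower in MeGRX232-OE and 9.72% in MeGRX360-OE. In photoprotection, 3 of 14 were named, of which *NPQ4* and *LUT2* fell in MeGRX232-OE and *LUT2* alone in MeGRX360-OE leaves. Both were named through the supplementary gene lists, and the 1 gene named by the platform annotation, *PGRL1B*, did not pass. *LUT2*, a lycopene cyclase on the way to lutein, fell by 1.32 in MeGRX232-OE and by 0.73 in MeGRX360-OE (adjusted p = 0.000950 and 0.0221), while *PGRL1B* had log2 differences of 0.14 in MeGRX232-OE and 0.02 in MeGRX360-OE. In photorespiration, which recycles the product of the oxygenase reaction of Rubisco, 3 of 11 were named and 2 fell in MeGRX232-OE and 1 in MeGRX360-OE leaves, with the peroxisomal hydroxypyruvate reductase gene *HPR* lower in both (log2 difference -0.81 in MeGRX232-OE, adjusted p = 0.00185, and -0.54 in MeGRX360-OE, adjusted p = 0.0177). *AT1G11860* had a log2 difference of -1.41 in MeGRX232-OE, the largest of that list in this group (adjusted p = 0.00732), and -0.36 in MeGRX360-OE (adjusted p = 0.469). None of the 3 named light-harvesting genes out of 19 was called in either group. All 3 are *LHCB4* genes, so they do not stand for the rest of that list. The study's own light-harvesting list has 4 probe sets, 1 of them of a gene described here, and was picked as changed on these arrays. Of those 4, 3 fell in MeGRX232-OE and 2 in MeGRX360-OE, which is not independent evidence. *LHCB4.1* and *LHCB4.2*, both bright, had log2 differences of 0.08 and -0.36 in MeGRX232-OE and 0.43 and 0.14 in MeGRX360-OE, and *LHCB4.3* ranged from 49.4 to 482 on the vector arrays alone. Of 10 genes of chlorophyll breakdown only *NOL*, a chlorophyll b reductase subunit, was named, with log2 differences of 0.56 in MeGRX232-OE and 0.18 in MeGRX360-OE that did not pass.

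**Figure D4:**
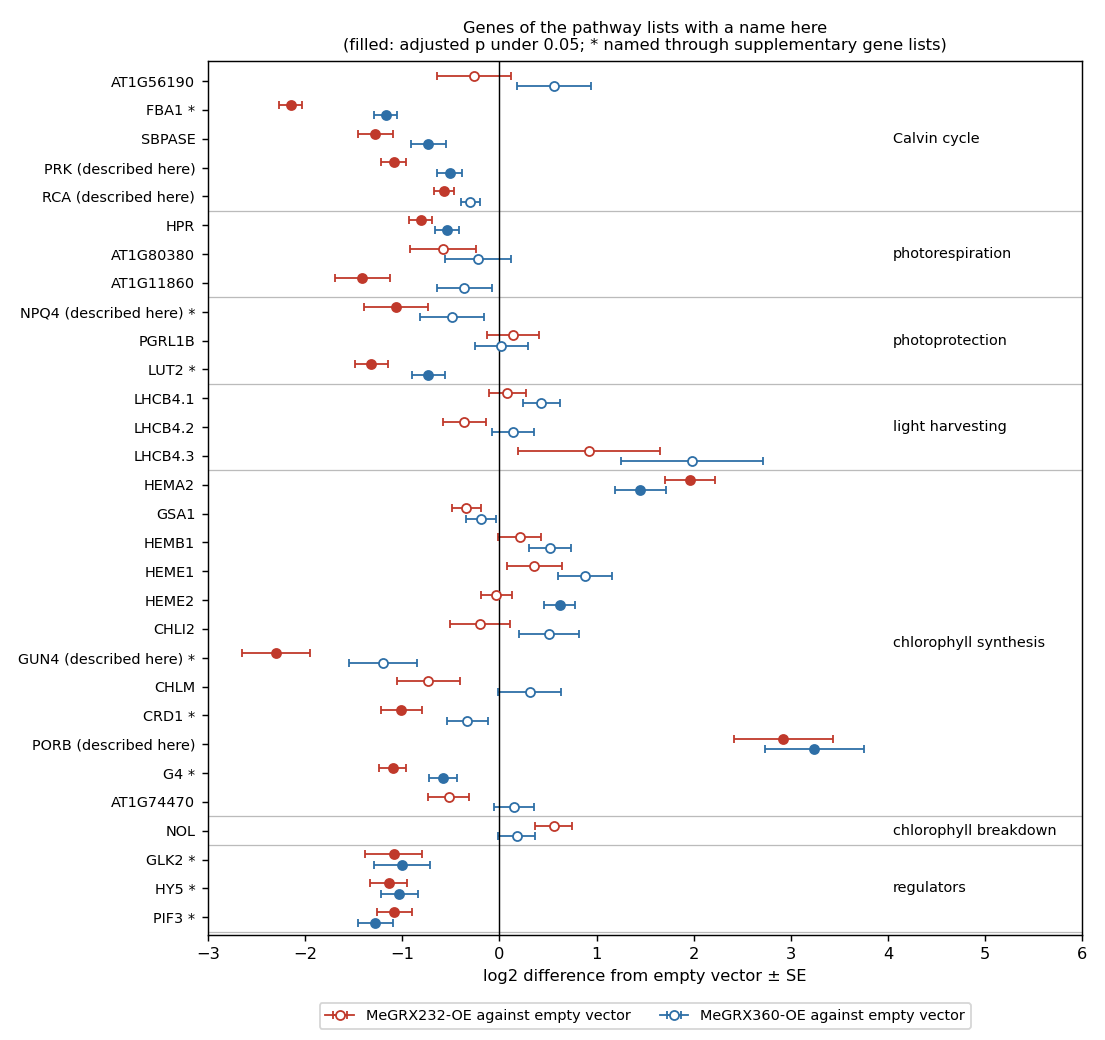
Log2 difference from the empty vector (± SE from limma) of every gene of the 7 pathway lists that has a name here, in MeGRX232-OE and MeGRX360-OE, filled where the adjusted p was under 0.05, with a star for genes named through supplementary gene lists that were drawn from these arrays. Calvin cycle genes lie mostly left of 0, the light-harvesting genes are all open, and chlorophyll synthesis spreads from *GUN4* (-2.30) to *PORB* (2.92) in MeGRX232-OE.

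Of 6 regulators of photosynthesis genes, 3 were named, all through the supplementary gene lists, and all 3 fell in both groups. They have names here only because they had been picked as changed on these arrays. Their calls in MeGRX232-OE are thus not independent evidence, and the MeGRX360-OE comparison uses the same vector arrays. Over all probe sets, 12.8% were called lower in MeGRX232-OE and 9.72% in MeGRX360-OE. *GLK2*, a factor that activates genes of chloroplast development, had geometric mean intensities of 215 in MeGRX232-OE leaves (log2 difference -1.09, adjusted p = 0.0276), 228 in MeGRX360-OE leaves (adjusted p = 0.0479) and 456 in vector leaves. *HY5*, which promotes light-induced genes, had log2 differences of -1.14 in MeGRX232-OE and -1.03 in MeGRX360-OE. *PIF3*, known in dark-grown seedlings as a repressor of chlorophyll genes, had -1.08 in MeGRX232-OE and -1.28 in MeGRX360-OE (adjusted p = 0.00230 to 0.00672 for both genes in both groups).

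Of 5 genes of the circadian clock 4 were named and all 4 were called in both groups, but *CCA1*, *TOC1* and *ELF3* only have names here through the supplementary gene lists, that is, because they had been picked as changed on these arrays, and *GI* alone is named by the platform annotation. *CCA1*, a morning factor of the clock, had intensities of 63.2 to 140 in MeGRX232-OE leaves (log2 difference -3.07), 166 to 250 in MeGRX360-OE leaves (log2 difference -2.03) and 793 to 929 in vector leaves. *GI*, *TOC1* and *ELF3*, which act later in the day or in the evening, rose by 1.79, 2.26 and 3.07 in MeGRX232-OE and by 1.23, 1.46 and 2.15 in MeGRX360-OE leaves (adjusted p = 6.72e-05 to 0.0101 for the 4 genes in both groups). As for the means of *PRK*, *RCA*, *NPQ4* and *GUN4*, MeGRX360-OE lay between MeGRX232-OE and vector for each of these means. None of the 4 clock genes was called in MeGRX232-OE against MeGRX360-OE (limma, adjusted p = 0.0968 to 0.359). The labels and methods do not say at what hour leaves were taken, and the part of the clock or of that hour in the levels of the 5 genes was not tested.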

How the data were processed

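Biotin-labelled cRNA from total leaf RNA was hybridized to 9 ATH1 arrays. The authors deposited intensity values for each probe set, already normalized between arrays. The submitters' processing notes name RMA. Its version and settings were not stated in the labels or methods read here. The values are linear (3.24 to 15640), so log2 was taken and nothing else was changed. No 2 arrays were duplicates, since at most 0.956% of values were equal.

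limma 3.58.1 (R 4.3.3) was fitted to 22746 probe sets, without 64 controls, with 3 group means and a shared spread (6 residual and 2.76 prior degrees of freedom). p-values were adjusted by Benjamini-Hochberg, with 0.05 as threshold. The steps were tested on simulated data. Python 3.11.15, pandas 2.3.3, numpy 2.4.6 and matplotlib 3.10.9 joined and drew the tables.

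The platform annotation gave 1 gene for 13513 probe sets and several for 503 (not named), and did not list 8794. For the genes described and the pathway lists, 12 unlisted probe sets were named through complete gene lists in the study's supplement, and a gene without a name is not analysed here. Genes named are the 5 described, up to 4 of each list with the largest difference in MeGRX232-OE plus list genes that moved the other way, the 3 nearest patterns of each gene, and clock and quality probe sets. *CRD1*, *HEME2* and *LHCB4.1* as a leaf check were added after their values were seen. The genes and lists were chosen with earlier results of these data known.

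Alternatives were a replicate block, quantile normalization, median centring, leaving out the dimmest 40% of probe sets, an intensity trend in the prior, array quality weights, only the 6 arrays compared, leaving out each array, and a fold over 2 with an unadjusted p under 0.05. Sequences were not used here.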

Additional observations from a re-analysis of the deposited data

How the results depend on the processing

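Under the 16 alternatives that refitted the model, *PRK*, *RCA*, *PORB* and *GUN4* in MeGRX232-OE and *PORB* in MeGRX360-OE passed the threshold against the vector each time, with log2 differences of -1.14 to -0.998, -0.61 to -0.50, 2.47 to 3.49, -2.56 to -1.81 and 2.79 to 3.82. The replicate numbers name lines of different constructs. Deviations of same-numbered arrays correlated at -0.212 to 0.267, and those of differently numbered arrays of different groups at -0.41 to 0.227. No pairing by number was seen, but with 3 arrays a group these values cannot exclude one. With the replicate block, *NPQ4* in MeGRX232-OE kept its log2 difference of -1.06 with an adjusted p = 0.0565, and 4, 2 and 0 of the 5 genes passed in MeGRX232-OE against vector, in MeGRX360-OE against vector and in the comparison of both MeGRX groups, beside 4724, 3302 and 25 of the 22746 probe sets. After median centring *NPQ4* was at -1.01 (adjusted p = 0.0591), and with single arrays left out at -1.196 to -0.903.

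In MeGRX360-OE against vector, *GUN4* passed at -1.198 without the dimmest probe sets (adjusted p = 0.0351), with an intensity trend (0.0453) and with only the 6 arrays compared (0.00207), and at -1.25 with array quality weights (0.00772), under which *RCA* passed at -0.30 (0.0241), so that 4 of the 5 genes were called. With single arrays left out, 1 to 4 were called, and the log2 differences were -0.61 to -0.44 for *PRK*, -0.32 to -0.28 for *RCA* and -1.28 to -1.12 for *GUN4*. In MeGRX232-OE against MeGRX360-OE the difference of *PORB* turned to 0.0140 with array quality weights (adjusted p = 0.990) and ranged from -0.546 to 0.0203 with single arrays left out, the last without MeGRX232-OE line 12.

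A fold over 2 with an unadjusted p under 0.05 called 2683, 1963 and 490 probe sets in the 3 comparisons, in place of 5009, 3746 and 33. Of the 5 genes it called 4 in MeGRX232-OE, without *RCA*, whose fall was 1.49-fold, 2 in MeGRX360-OE, where *GUN4* and *PORB* passed and *PRK* did not, and 1, *GUN4*, in the last. Array quality weights called 5701 in MeGRX360-OE against vector and 530 in MeGRX232-OE against MeGRX360-OE, where median centring called 21 and the 6 arrays alone 5. With single arrays left out, 2219 to 4063 were called in MeGRX360-OE against vector and 4 to 177 in MeGRX232-OE against MeGRX360-OE. The cause of these changes was not tested. Of 342 values under alternatives, 291 kept direction and side of the threshold, or, for counts, stayed within 1.5 times. Having 3 arrays a group limits the precision of all of them.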
